A study of Mus musculus with 12 samples.

Results

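Bhlhe40, Bhlhe41, Mitf, Tfec, Tfeb and Tfe3 encode 6 basic helix-loop-helix transcription factors that bind E-box sequences, and the chromatin around these genes was examined in graft-derived and host macrophages of the mouse brain. All peaks annotated to 1 of the 6 genes in the deposited tables of accessible regions were taken, which gave 52 of 60288 peaks in the table of untreated mice and 50 of 54953 in the table of mice given lipopolysaccharide (LPS, a bacterial endotoxin). Bhlhe40 held 2 untreated and 3 LPS peaks, Bhlhe41 7 and 6, Mitf 17 and 17, Tfec 7 and 8, Tfeb 13 and 13, and Tfe3 6 and 3. The genome build was mm9, and peak positions are given relative to the nearest annotated start site, with negative values upstream.

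ATAC-seq, in which a transposase cuts and tags open DNA, was run on cells sorted from the brains of bone marrow (BM) chimeric mice labelled as WT and C57BL/6J. Every mouse had received 950 cGy of irradiation and donor BM at 6 weeks of age. The labels give 3.5 or 9 months from transplantation to analysis and tie neither to a mouse. The longer interval is the one that the study describes for the chimeras used for epigenome work and for the LPS challenge. The study's gate took CD11b+ Ly6C/G- cells with low CD45, and the sort separated those of donor origin (CD45.1) from microglia left in the host (CD45.2). Both were taken from an irradiated brain, and no group stands for an unirradiated one. Mice 4, 5 and 6 were not injected and gave the untreated groups of both populations. Mice 1, 2 and 3 received LPS at a dose of 2.5 mg/kg, were killed after 12 h and gave the LPS groups. Each of the 4 groups had 3 libraries.

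BHLHE40 and BHLHE41, also known as DEC1 and DEC2, are repressors that bind the E-box CACGTG, take part in the molecular clock and shape the responses of macrophages and microglia. MITF, TFEB, TFE3 and TFEC form the MiT/TFE family, which binds the same E-box and the related M-box TCATGTGA, as homodimers or as heterodimers with each other. TFEB and TFE3 are held in the cytoplasm by mTORC1 at the lysosome when nutrients are plentiful, and on entering the nucleus they activate genes of lysosomes and autophagy, the CLEAR network. MITF controls pigment cells and osteoclasts and is transcribed from several promoters, of which the most downstream serves melanocytes. TFEC is made mainly in cells of the macrophage lineage.

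Libraries held 8392878 to 9107770.0 tags in untreated mice and 2966364 to 6556594 after LPS. Of these, 1680264 to 3348848 and 779253 to 2121732 lay in the merged peaks. Among the untreated libraries, that of CD45.2 mouse 4 had the most tags and the fewest of them in the merged peaks. Tags summed over the peaks of 7 microglia genes ranged from 1312 to 1913 in CD45.1 and from 3003 to 3256 in CD45.2 libraries of untreated mice, and 3 of the 7 were higher in CD45.2, Sall1 and Sall3 among them. For 7 genes of BM-derived or border macrophages the sums ranged from 1347 to 1362 and from 719 to 776, and 4 of the 7 were higher in CD45.1 (Ms4a7, Apoe, Mrc1 and Cd38). Every gene of these lists had a peak. In untreated mice, markers of neurons, endothelium, astrocytes and oligodendrocytes had higher sums in every CD45.2 library (neurons 79.7 to 89.9 in CD45.1 against 219 to 246). Those of B cells had higher sums in every CD45.1 library, from the 2 genes of 5 that had a peak (139 to 162 against 71.2 to 92.3). Neutrophil and T cell markers overlapped, as did those of oligodendrocytes after LPS (471 to 522 in CD45.1 against 464 to 511). Cd3e, Cd3g, Cd79a and Pax5 had no peak in either table. In sorted bulk cells, more cells with an open site and a more open site per cell cannot be told apart.

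The peaks on which the results turn are given from the mm9 reference, each on the strand of its gene, with matches to the letters of 5 motifs in capitals. The motifs were the E-box CACGTG, the M-box TCATGTGA, TGANTCA (the AP-1 type), GAGGAAGT (the PU.1 type) and TTNNGCAA (the C/EBP type), searched on both strands, and they share no match here. In the 200 bp around the peak centres, these letters occurred in 5.65%, 1.21%, 8.11%, 9.45% and 9.82% of all untreated peaks and in 5.82%, 1.28%, 13.4%, 8.72% and 12.2% of all LPS peaks. A match is a run of letters and not a bound site.
The Tfec peaks are shown because 4 of the 6 calls between graft and host cells lay at this gene. They come from the promoter (chr6:16848601-16848751), intron 1 (chr6:16842020-16842188, with a TGANTCA match) and a further point of intron 1 (chr6:16839617-16839771, with a GAGGAAGT match).
Tfec promoter, -235 bp: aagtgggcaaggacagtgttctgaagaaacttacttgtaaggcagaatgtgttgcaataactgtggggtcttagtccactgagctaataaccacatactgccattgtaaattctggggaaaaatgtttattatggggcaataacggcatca
Tfec intron 1, 6337 bp: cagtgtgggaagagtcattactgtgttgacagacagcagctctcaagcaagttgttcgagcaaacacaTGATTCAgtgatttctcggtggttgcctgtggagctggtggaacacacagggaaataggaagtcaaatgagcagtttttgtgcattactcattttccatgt
Tfec intron 1, 8747 bp: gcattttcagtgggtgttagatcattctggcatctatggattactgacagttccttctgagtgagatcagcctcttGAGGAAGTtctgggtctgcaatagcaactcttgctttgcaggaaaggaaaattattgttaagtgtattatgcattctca
The Tfeb peak upstream of the later annotated start (chr17:47921463-47921663) is shown because it opened most after LPS in both populations among the peaks of Tfeb, and it held 2 matches to TTNNGCAA.
Tfeb, -1130 bp of the later start: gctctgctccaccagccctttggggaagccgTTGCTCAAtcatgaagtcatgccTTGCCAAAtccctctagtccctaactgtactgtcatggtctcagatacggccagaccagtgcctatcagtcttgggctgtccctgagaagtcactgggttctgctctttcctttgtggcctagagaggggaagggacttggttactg
Bhlhe40 and Bhlhe41 peaks are shown because they hold the E-box that their own products bind, from the Bhlhe40 promoter (chr6:108610325-108610589, with an E-box and an M-box), a site upstream of Bhlhe41 that was accessible in host cells (chr6:145820150-145820245) and a site downstream of it with 2 E-boxes (chr6:145804352-145804529).
Bhlhe40 promoter, -166 bp: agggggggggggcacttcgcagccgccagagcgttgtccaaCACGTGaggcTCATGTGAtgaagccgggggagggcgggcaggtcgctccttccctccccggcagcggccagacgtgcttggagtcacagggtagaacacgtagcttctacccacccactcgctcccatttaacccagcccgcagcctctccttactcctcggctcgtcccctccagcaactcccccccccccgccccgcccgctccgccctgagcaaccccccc
Bhlhe41 upstream, -6257 bp: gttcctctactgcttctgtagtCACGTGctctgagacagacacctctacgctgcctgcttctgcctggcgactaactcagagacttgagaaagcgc
Bhlhe41 downstream, 9500 bp: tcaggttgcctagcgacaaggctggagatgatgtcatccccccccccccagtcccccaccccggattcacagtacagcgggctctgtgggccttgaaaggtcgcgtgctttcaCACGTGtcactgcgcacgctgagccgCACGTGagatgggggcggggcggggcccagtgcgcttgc
The intron 1 peak of Mitf called after LPS (chr6:97776774-97776934) held none of the 5 motifs.
Mitf intron 1, 19802 bp: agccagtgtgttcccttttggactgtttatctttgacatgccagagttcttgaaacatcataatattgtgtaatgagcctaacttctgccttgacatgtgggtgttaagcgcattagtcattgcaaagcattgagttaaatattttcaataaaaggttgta

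In untreated mice, graft-derived CD45.1 cells had more accessible chromatin than CD45.2 microglia at Tfec and at the Bhlhe40 promoter. CD45.2 cells had 1 site upstream of Bhlhe41 that CD45.1 cells nearly lacked. No peak of Tfeb or Tfe3 passed a DESeq2 adjusted p of 0.05. By edgeR the Tfeb peak at 9881 bp, higher in CD45.2, did (adjusted p = 0.0463). A peak was called at a DESeq2 adjusted p below 0.01 together with a change beyond 4-fold. Of the 51 member peaks that passed the count filter, 2 were called higher in CD45.1 and 1 in CD45.2, beside 3.78% and 2.65% of all tested peaks (6.43% in either direction), so the members were called about as often as other peaks. Without the fold limit, 6 passed an adjusted p of 0.05 as higher in CD45.1 and 1 as lower, beside 8.54% and 6.32%. With the mouse from which both populations were sorted as a replicate block, 3 of the 6 passed. All 3 CD45.1 libraries lay above all 3 CD45.2 libraries at 12 member peaks, and below at 4, beside 17.8% and 17.7% of all peaks. The median log2 fold change between the populations was 0.03 over the members and 0.00 over all peaks.

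After LPS, 3 of 50 member peaks were called higher in CD45.1, beside 1.78% of all tested peaks (2.97% in either direction). These lay at Tfec (2) and Mitf (1). None was called higher in CD45.2 by DESeq2 or by edgeR, beside 1.19% of all peaks, and 0 were so at an unadjusted p under 0.05. Without the fold limit, 7 passed as higher in CD45.1 and 0 in CD45.2, beside 4.08% and 2.38%. The CD45.1 libraries all lay above those of CD45.2 at 13 member peaks and below at 3, beside 14.1% and 13% of all peaks. With the replicate block, 0 of the 3 LPS calls were left, and 5 peaks passed without the fold limit.

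**Figure D1:**
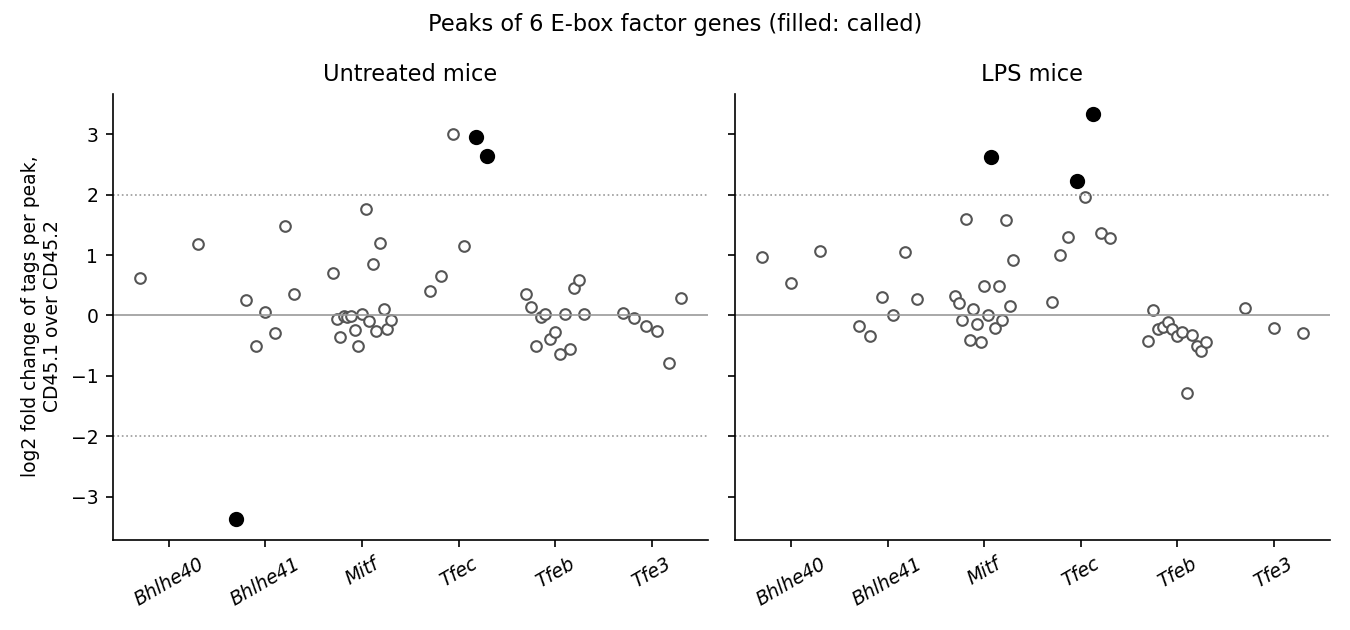
Log2 fold change of tags per peak, CD45.1 over CD45.2, for each tested peak of the 6 genes in untreated (left) and LPS (right) mice, ordered within a gene by distance to the start site, with called peaks filled and dotted lines at the 4-fold limit. The called peaks of Tfec and Mitf lie above 0, and that of Bhlhe41 in untreated mice lies below it.

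At Tfec, 4 of 6 tested peaks in untreated mice and 5 of 8 after LPS passed an adjusted p of 0.05, all of them higher in CD45.1 cells. Of the tested peaks, 4 untreated and 4 LPS ones were in the own lists of CD45.1 libraries only, so the merged tables held them through the population in which they were high. The sums that follow include these peaks. Their direction was thus favoured in part by that selection, and their p-values are no separate support. Summed over its peaks, Tfec had 235 ± 30.7 normalized tags per CD45.1 library against 99.97 ± 11.4 per CD45.2 library (SD, n = 3) in untreated mice, a difference larger than the spread between libraries (DESeq2, log2 fold change 1.22, SE 0.17, adjusted p = 4.66e-11). After LPS the sums were 308 ± 37.4 normalized tags per CD45.1 library against 123 ± 30.1 per CD45.2 library (SD, n = 3), again without overlap (log2 fold change 1.36, SE 0.20, adjusted p = 1.53e-09). Over all genes, 7.35% of untreated and 4.08% of LPS sums passed an adjusted p of 0.05 as higher in CD45.1 (in either direction, 14.8% and 7.07%). In a separate fit of only the strongest peak of each gene, that of Tfec gave 0.61 (adjusted p = 0.0933) in untreated mice. All 6 libraries listed this peak, at -65659 bp, and in the fit of all peaks its adjusted p was 0.0494.

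The intron 1 peak (chr6:16841993-16842144, 6373 bp downstream of the start) held 51.8, 66.2 and 76.2 normalized tags in the CD45.1 libraries of mice 4, 5 and 6 and 9.01, 7.74 and 7.71 in the CD45.2 libraries of untreated mice. The lowest CD45.1 library was thus far above the highest CD45.2 library (log2 fold change 2.95, SE 0.40, adjusted p = 2.31e-11), and only the 3 CD45.1 libraries had the peak in their own lists. The call was kept without any 1 of the 6 libraries, with log2 fold changes from 2.83 to 3.09. After LPS the same site (chr6:16842020-16842188) held 80.1, 76.97 and 75.5 normalized tags in the CD45.1 libraries of mice 1, 2 and 3 and 24.5, 20.5 and 16.6 in the CD45.2 libraries, and all 6 libraries listed it. The groups stayed apart, at a fold change just under the limit of 4 (log2 fold change 1.961, SE 0.30, adjusted p = 6.79e-08).

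The promoter was weakly accessible. In untreated mice, the peak nearest the start (chr6:16848406-16848504) held 6.53, 12.8 and 11.4 normalized tags (CD45.1) against 1.64, 5.81 and 5.27 (CD45.2). This did not pass the test (log2 fold change 1.144, SE 0.72, adjusted p = 0.368). The peak 241 bp upstream held 14.9, 9.13 and 5.45 normalized tags (CD45.1) against 0, 0.774 and 2.43 (CD45.2). All CD45.1 libraries were above all CD45.2 libraries, at an adjusted p that fell short of a call (log2 fold change 3.00, SE 1.02, adjusted p = 0.0264). That p was 0.0991 with the replicate block and 0.0712 to 0.190 without 1 of CD45.1 mouse 5 and CD45.2 mice 4, 5 and 6, and without CD45.1 mouse 4 the peak was not tested. After LPS the upstream promoter peak (chr6:16848601-16848751) held 16.98, 33.9 and 24.5 normalized tags in the CD45.1 libraries of mice 1, 2 and 3 and 7.88, 3.92 and 6.23 in the CD45.2 libraries. It was called (log2 fold change 2.22, SE 0.55, adjusted p = 0.00234). With the replicate block its adjusted p was 0.0289. Leaving out libraries ended the call without CD45.1 mouse 2 (0.0840) or 3 (0.0222) and without CD45.2 mouse 2 (0.0700) or 3 (0.0349), the values being adjusted p.

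Deeper in intron 1, the peak at 14340 bp (chr6:16834043-16834160) was called in untreated mice, with 22.9, 33.3 and 18.5 normalized tags (CD45.1) against 0.819, 3.87 and 6.09 (CD45.2) and no overlap of the groups (log2 fold change 2.64, SE 0.62, adjusted p = 3.42e-04). Its adjusted p was 0.0207 without CD45.1 mouse 5 and 0.0130 without CD45.2 mouse 5. After LPS a neighbouring peak at 14694 bp, which the untreated table did not hold, had 35.2, 69.1 and 75.01 normalized tags (CD45.1) against 29.8, 27.9 and 18.1 (CD45.2) (log2 fold change 1.29, SE 0.35, adjusted p = 0.00756, under 4-fold). With the replicate block this adjusted p was 0.0747, and it was 0.0515 to 0.164 without 1 of CD45.1 mice 2 and 3 and CD45.2 mice 2 and 3. The peak at 14329 bp did not pass (log2 fold change 1.36, SE 0.54, adjusted p = 0.122). A further intron 1 peak at 8747 bp was in the LPS table alone, 2222 bp from the nearest untreated peak. It held 14.6, 26.1 and 11.8 normalized tags (CD45.1) against 0, 2.18 and 2.37 (CD45.2) and was called (log2 fold change 3.34, SE 0.82, adjusted p = 0.00195). With the replicate block the adjusted p was 0.0148, and without any 1 library other than CD45.1 mouse 3 it ran from 0.0112 (CD45.2 mouse 1) to 0.0743 (CD45.1 mouse 2).

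Far upstream, an intergenic peak whose nearest start was that of Tfec had the most tags of the gene's peaks when averaged over the 6 libraries of either table. In the CD45.1 libraries after LPS the intron 1 peak was higher (mean 77.5 against 74.6 normalized tags). At -65659 bp in untreated mice it held 68.6, 84.9 and 77.9 normalized tags (CD45.1) against 49.2, 47.2 and 52.3 (CD45.2). The difference was under 2-fold (log2 fold change 0.65, SE 0.24, adjusted p = 0.0494), and its adjusted p was 0.196 with the replicate block and between 0.0717 and 0.268 without any 1 of the 6 libraries. After LPS, at -65690 bp, the values were 74.4, 79.6 and 69.8 normalized tags (CD45.1) against 49.04, 38.8 and 28.8 (CD45.2) (log2 fold change 1.00, SE 0.28, adjusted p = 0.00889). There the adjusted p was 0.0937 with the replicate block and 0.0707 to 0.201 without 1 of CD45.1 mice 1 and 2 and CD45.2 mice 2 and 3. The untreated peak at 1348 bp had too few tags for the test, 22 tags over the CD45.1 and 2.50 over the CD45.2 libraries, a ratio of 8.94 after scaling (95% counting interval 2.75 to 98.02, exact binomial, counting error only). The other 3 Tfec peaks, at -67420 bp in untreated and -67397 and -45267 bp in LPS mice, had log2 fold changes from 0.23 to 1.31 and did not pass the test. The summed markers of BM-derived or border macrophages were higher in CD45.1 in the same libraries (1347 to 1362 against 719 to 776 tags untreated, 643 to 741 against 369.9 to 403 after LPS). At an adjusted p of 0.05, 4 and 3 of the 7 genes passed, and their part in the Tfec difference was not tested.

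Bhlhe40 was more accessible in CD45.1 cells, by less than 4-fold. Its promoter peak (chr6:108610397-108610513, 168 bp upstream of the start) held 65.3, 39.7 and 75.1 normalized tags in the CD45.1 libraries of mice 4, 5 and 6 and 27.04, 21.3 and 31.6 in the CD45.2 libraries in untreated mice. All CD45.1 libraries lay above all CD45.2 libraries (log2 fold change 1.18, SE 0.32, adjusted p = 0.00320). After LPS the wider promoter peak (chr6:108610325-108610589) held 88.5, 110.2 and 84.9 normalized tags (CD45.1) against 64.8, 40.99 and 35.3 (CD45.2), again without overlap (log2 fold change 1.06, SE 0.27, adjusted p = 0.00274). The untreated adjusted p rose above 0.05 without CD45.1 mouse 4 (0.0523), CD45.1 mouse 6 (0.0564) or CD45.2 mouse 5 (0.0830), and the LPS one without CD45.1 mouse 2 (0.0786), CD45.2 mouse 2 (0.0886) or CD45.2 mouse 3 (0.0976). The E-box and the M-box printed above lie in this peak.

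The peak at -1081 bp of Bhlhe40, in intron 1 of an overlapping noncoding transcript, was its strongest site in untreated mice. It held 104, 90.4 and 80.05 normalized tags (CD45.1) against 73.7, 44.5 and 64.5 (CD45.2). It did not pass by DESeq2 (log2 fold change 0.62, SE 0.24, adjusted p = 0.0601), and by edgeR its adjusted p was 0.0142. After LPS it held 82.9, 86.8 and 83.03 normalized tags (CD45.1) against 70.1, 49.3 and 56.7 (CD45.2) (log2 fold change 0.54, SE 0.24, adjusted p = 0.214). Summed over its peaks, Bhlhe40 had 151 ± 19.1 normalized tags per CD45.1 library against 88.6 ± 18.2 per CD45.2 library (SD, n = 3) in untreated mice (DESeq2, log2 fold change 0.78, SE 0.20, adjusted p = 0.00121) and 197 ± 13.5 normalized tags per CD45.1 library against 114 ± 26.6 per CD45.2 library (SD, n = 3) after LPS (log2 fold change 0.82, SE 0.20, adjusted p = 0.00123). The untreated sum lost its call without CD45.1 mouse 4 (adjusted p = 0.0503), without CD45.2 mouse 5 (0.0746), and with tags scaled to the library total (0.277). The LPS sum lost it without CD45.2 mouse 2 (0.0818) and with the replicate block (0.0502). The markers of BM-derived or border macrophages, given for Tfec, were higher in the same CD45.1 libraries, and their part in the Bhlhe40 difference was not tested. In the separate fit of only the strongest peak of each gene, that of Bhlhe40 gave adjusted p of 0.1003 and 0.221.

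Bhlhe41 had 1 host-type site. At -6257 bp (chr6:145820150-145820245, intergenic), CD45.1 libraries held 1.87, 2.28 and 1.09 normalized tags and CD45.2 libraries 12.3, 18.96 and 18.3, so every CD45.2 library lay above every CD45.1 library (log2 fold change -3.37, SE 0.83, adjusted p = 7.88e-04). These are 5.50 and 54.5 tags in all, and only the lists of CD45.2 mice 5 and 6 held the peak. It thus entered the merged peaks through the population in which it was high. The adjusted p rose to 0.0111 without CD45.1 mouse 4, 0.0184 without CD45.2 mouse 5 and 0.0142 without CD45.2 mouse 6. The LPS table held no peak within 4788 bp, and no value was had there. In the same untreated libraries, markers of microglia (1312 to 1913 against 3003 to 3256 tags, 3 of 7 genes) and of neurons (79.7 to 89.9 against 219 to 246 tags, 3 of the 4 genes with a peak, Gad1 having none) were also higher in CD45.2, and their part in this difference was not tested.

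Of the other Bhlhe41 peaks, 5 of 6 untreated ones overlapped between the populations. The promoter peak (chr6:145814017-145814133) held 80.2, 72.6 and 76.2 normalized tags (CD45.1) against 86.03, 77.4 and 60.5 (CD45.2) in untreated mice, with interleaved values (log2 fold change 0.06, SE 0.23, adjusted p = 0.932). After LPS it was the strongest of the gene, with 59.03, 71.8 and 46.2 normalized tags (CD45.1) against 47.3, 53.6 and 41.6 (CD45.2) (log2 fold change 0.30, SE 0.28, adjusted p = 0.712). In untreated mice the strongest was an intergenic peak at -1336 bp, with 92.3, 97.7 and 81.1 normalized tags (CD45.1) against 86.03, 68.1 and 77.1 (CD45.2) (log2 fold change 0.25, SE 0.21, adjusted p = 0.569). The sums over all Bhlhe41 peaks did not pass the test, with log2 fold changes of -0.04 (95% interval -0.30 to 0.23, DESeq2 adjusted p = 0.944) and 0.15 (-0.21 to 0.50, 0.778 after LPS). At the end of the gene, 7782 bp from the start, the untreated peak was higher in CD45.1 by less than 4-fold, with 15.4, 28.8 and 20.1 normalized tags (CD45.1) against 11.5, 4.64 and 7.71 (CD45.2) (log2 fold change 1.48, SE 0.54, adjusted p = 0.0408). Its adjusted p was 0.182 with the replicate block. It was 0.0657 to 0.351 without 1 of CD45.1 mice 4, 5 and 6 and CD45.2 mice 5 and 6. Only CD45.1 libraries listed this untreated peak, so it too entered through the population in which it was high. After LPS the same site, at 7763 bp, did not pass (log2 fold change 1.05, SE 0.71, adjusted p = 0.537). Of the Bhlhe41 peaks, 4 of 7 (untreated) and 3 of 6 (LPS) held the E-box letters.

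At Mitf, the most upstream promoter was open to a like degree in both populations. Its peak (chr6:97756885-97757009, 105 bp upstream) was also the strongest of the gene, with 215, 196 and 209 normalized tags in the CD45.1 libraries of mice 4, 5 and 6 and 220.4, 191 and 223 in the CD45.2 libraries of untreated mice. The groups interleaved (log2 fold change -0.03, SE 0.14, adjusted p = 0.954). They did so after LPS as well, with 107, 104 and 126 normalized tags (CD45.1) against 118, 105 and 95.3 (CD45.2) (log2 fold change 0.10, SE 0.21, adjusted p = 0.901). A second annotated promoter carried a weaker peak at -298 bp in untreated and -303 bp in LPS mice, with log2 fold changes of -0.01 and -0.40. The third and most downstream start had no peak within 1 kb in either table, the nearest lying at 4158 bp (untreated) and 4155 bp (LPS).

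Mitf intron 1 held the single called peak of the gene, at 19802 bp (chr6:97776774-97776934) and in the LPS table alone, 2240 bp from the nearest untreated peak. It held 18.2, 16.96 and 25.9 normalized tags in the CD45.1 libraries of mice 1, 2 and 3 and 1.75, 1.74 and 5.34 in the CD45.2 libraries, and the lowest CD45.1 value lay above the highest of CD45.2 (log2 fold change 2.62, SE 0.65, adjusted p = 0.00242). Only the 3 CD45.1 libraries listed it, so it entered the merged peaks through the population in which it was high. With the replicate block its adjusted p was 0.0145, and leaving out any 1 of the 6 libraries ended the call, with adjusted p from 0.0136 (CD45.2 mouse 1) to 0.0653 (CD45.2 mouse 2). The other 33 tested peaks had log2 fold changes from -0.51 to 1.77 and none passed a DESeq2 adjusted p of 0.05. By edgeR, the peaks at 22174 bp (untreated, adjusted p = 0.0158) and -5380 bp (LPS, 0.0434) passed, both higher in CD45.1. Only CD45.1 libraries listed them. At an unadjusted p under 0.05, 1 untreated and 2 LPS peaks, the called one included, were higher in CD45.1. Summed over the gene, the log2 fold change was -0.03 (95% interval -0.21 to 0.16, DESeq2 adjusted p = 0.939) in untreated mice. After LPS it was 0.19 (-0.11 to 0.49, 0.605). There every CD45.1 library lay above every CD45.2 library, in a sum that includes peaks listed by CD45.1 libraries only. Single peaks ordered in that way made up 14.1% of all LPS peaks. Over the 12 matched Mitf peaks the LPS libraries of the populations overlapped, at 457 to 529 (CD45.1) against 459 to 480 (CD45.2) normalized tags.

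Tfeb and Tfe3, the lysosomal regulators, were open in both populations, and no peak of either was called. The Tfeb promoter peak nearest the start (chr17:47873886-47874002) held 112, 101 and 125 normalized tags (CD45.1) against 114, 106 and 111 (CD45.2) in untreated mice. After LPS it held 38, 48.9 and 48.1 normalized tags (CD45.1) against 45.5, 53.2 and 57 (CD45.2). Log2 fold changes were 0.03 (adjusted p = 0.962) and -0.23 (0.813). Its strongest peak lay in intron 1, at -16887 bp of the later start, and held 136, 125 and 131 normalized tags (CD45.1) against 116, 124 and 116 (CD45.2) in untreated mice. There the CD45.1 libraries were above those of CD45.2 by a margin that did not pass (log2 fold change 0.13, SE 0.17, adjusted p = 0.758). After LPS the order was the opposite, 55.8, 50.9 and 48.1 normalized tags (CD45.1) against 58.7, 60.2 and 60.3 (CD45.2) (log2 fold change -0.22, SE 0.26, adjusted p = 0.802). At 9881 bp the untreated peak held 25.2, 20.1 and 22.3 normalized tags (CD45.1) against 35.2, 33.7 and 34.9 (CD45.2). Its log2 fold change was -0.64 (SE 0.35, adjusted p = 0.255 by DESeq2 and 0.0463 by edgeR). Log2 fold changes of all Tfeb peaks ran from -0.64 to 0.59 (untreated) and from -1.28 to 0.09 (LPS). The sums over all Tfeb peaks were lower in every CD45.1 than in every CD45.2 library in both tables, and did not pass the test. Single peaks ordered in that way made up 17.7% (untreated) and 13% (LPS) of all peaks. The log2 fold changes were -0.06 (95% interval -0.24 to 0.12, DESeq2 adjusted p = 0.809) and -0.28 (-0.58 to 0.02, 0.368 after LPS).

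The strongest Tfe3 peak lay at its upstream start (chrX:7339634-7339827), with 167, 186 and 191 normalized tags (CD45.1) against 219.6, 161 and 157 (CD45.2) in untreated mice. After LPS it held 74.4, 97.8 and 87.7 normalized tags (CD45.1) against 70.9, 85.9 and 78.7 (CD45.2). Values of the 2 populations were interleaved in both tables (log2 fold changes 0.04, SE 0.16, and 0.13, SE 0.23). A small peak 33 bp from another start held 23.3, 21.9 and 28.3 normalized tags (CD45.1) against 18.02, 29.4 and 26.4 (CD45.2) in untreated mice. Tfe3 sums gave log2 fold changes of -0.08 (95% interval -0.32 to 0.16, DESeq2 adjusted p = 0.825) and 0.01 (-0.37 to 0.39, 0.992 after LPS). These intervals bound what the 3 libraries a group could show and do not show that the populations were alike.

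**Figure D2:**
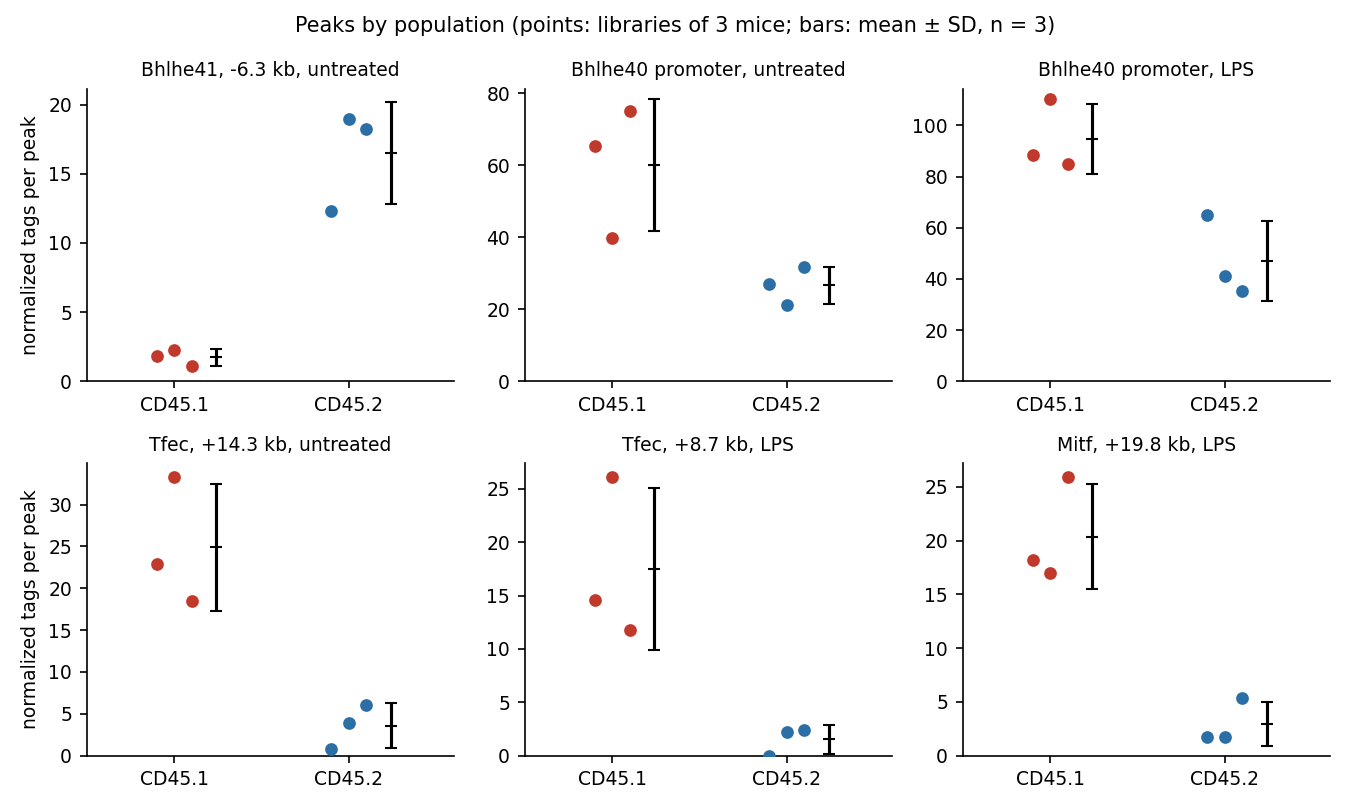
Normalized tags per peak (vertical axes, each from 0) in the CD45.1 (red) and CD45.2 (blue) libraries of untreated or LPS mice for 6 peaks, with points for the 3 libraries a group and bars for the mean ± SD. The Bhlhe41 peak is higher in CD45.2, the other 5 are higher in CD45.1, and in none of the panels do the groups overlap.

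LPS-treated and untreated mice were compared over the 39 member peaks that matched one to one between the tables (reciprocal overlap of at least 50%), within each population and in 1 model of all 12 libraries. Peaks at Tfec, Tfeb, Bhlhe40 and Bhlhe41 were more accessible after LPS, and none was called less accessible by the same rule. By a DESeq2 adjusted p below 0.05 together with a change beyond 2-fold, 5 of 39 rose in CD45.1 and 7 of 39 in CD45.2, beside 6.77% and 7.68% of all matched peaks. In both populations 0 of 39 were lower after LPS, beside 4.98% and 3.70%, with 2 and 1 lower at an unadjusted p under 0.05 and 1 and 0 by edgeR. Without the fold limit 0 were lower by DESeq2 and 2 (CD45.1) and 0 (CD45.2) by edgeR, beside 7.41% and 5.01%. The treated mice, the LPS table and its wider peaks (a median of 1.22 times the untreated width) go together and cannot be told apart.

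Tfec opened in both populations. Its intron 1 peak at 6373 bp went from 34.5, 44.4 and 50.2 normalized tags untreated to 116, 115 and 112 after LPS in CD45.1, a log2 fold change of 1.41 (SE 0.23, adjusted p = 6.55e-08). In CD45.2 it went from 5.98, 5.27 and 5.22 normalized tags untreated to 35.3, 29.7 and 24.5 after LPS, a change of 2.36 (SE 0.38, adjusted p = 5.40e-08). The CD45.2 LPS libraries and the CD45.1 untreated libraries overlapped in level. With a width ratio of 1.112 this peak was about as wide in both tables. The promoter peak at -241 bp went from 9.96, 6.12 and 3.58 normalized tags untreated to 24.6, 50.5 and 36.4 after LPS in CD45.1, 2.46 (SE 0.47, adjusted p = 6.70e-06). In CD45.2 it went from 0, 0.527 and 1.65 normalized tags untreated to 11.4, 5.69 and 9.19 after LPS, 3.18 (SE 0.88, adjusted p = 0.00372). This peak was 1.56 times as wide in the LPS table.

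The distal Tfec peak at -65659 bp rose from 45.7, 56.9 and 51.2 normalized tags untreated to 108, 119 and 104 after LPS in CD45.1, 1.09 (SE 0.21, adjusted p = 1.39e-05). In CD45.2 it went from 32.6, 32.1 and 35.4 normalized tags untreated to 70.6, 56.2 and 42.4 after LPS, staying under 2-fold, 0.67 (SE 0.24, adjusted p = 0.0378). The intron 1 peak at 14340 bp was called in CD45.2, from 0.544, 2.63 and 4.12 normalized tags untreated to 13.9, 12 and 7.44 after LPS, 1.98 (SE 0.60, adjusted p = 0.00968). In CD45.1 it went from 15.2, 22.4 and 12.2 normalized tags untreated to 21.7, 32.1 and 33.6 after LPS and did not pass, 0.78 (SE 0.41, adjusted p = 0.167). The CD45.2 call was lost without LPS mouse 2 (adjusted p = 0.0579), untreated mouse 4 (0.0514) or untreated mouse 5 (0.0551).

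Among the 12 matched Tfeb peaks, that upstream of the later start rose in both populations. At -1171 bp it went from 17.1, 9.18 and 14.7 normalized tags untreated to 62.7, 54.4 and 53.9 after LPS in CD45.1, a log2 fold change of 2.07 (SE 0.30, adjusted p = 1.001e-09). CD45.2 cells went from 21.8, 17.1 and 21.2 normalized tags untreated to 55.5, 60.6 and 74.4 after LPS, a change of 1.73 (SE 0.28, adjusted p = 7.04e-08). Every LPS library was above every untreated one, and leaving out any 1 of the 12 libraries kept both calls. The peak was 1.55 times as wide in the LPS table. The main Tfeb promoter peak at -42 bp did not pass, with -0.18 (SE 0.21, adjusted p = 0.575) in CD45.1 and 0.05 (SE 0.21, adjusted p = 0.894) in CD45.2. At -18911 bp CD45.2 cells went from 18.5, 21.1 and 26.6 normalized tags untreated to 52.97, 53.7 and 37.2 after LPS, 1.05 (SE 0.29, adjusted p = 0.00410). CD45.1 cells went from 27.7, 28.2 and 29.02 normalized tags untreated to 42.2, 34.98 and 28.7 after LPS, 0.33 (SE 0.30, adjusted p = 0.459). This call went without CD45.2 LPS mouse 1 (log2 fold change 0.99), LPS mouse 2 (0.94) or untreated mouse 4 (0.97), and the LPS peak was 2 times as wide.

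The Bhlhe40 peak at -1081 bp rose in both populations, from 69.4, 60.6 and 52.7 normalized tags untreated to 120.1, 129 and 123 after LPS in CD45.1, 1.01 (SE 0.21, adjusted p = 3.50e-05). In CD45.2 it went from 48.96, 30.3 and 43.7 normalized tags untreated to 101, 71.4 and 83.6 after LPS, 1.05 (SE 0.23, adjusted p = 7.84e-05). Both lay at the 2-fold limit and fell under it in CD45.1 without LPS mouse 2 (log2 fold change 0.99) or untreated mouse 6 (0.92). In CD45.2 the same held without LPS mouse 1 (0.95) or untreated mouse 5 (0.86), each time with an adjusted p under 0.05. The Bhlhe40 promoter peak differed too much in width between the tables to be matched. At Bhlhe41, the downstream site with 2 E-boxes went from 24.5, 21.1 and 13.5 normalized tags untreated to 45.4, 28.4 and 45.5 after LPS in CD45.2, 1.05 (SE 0.32, adjusted p = 0.0106). In CD45.1 it went from 31.1, 21.7 and 18.99 normalized tags untreated to 42.2, 48.6 and 53.9 after LPS, just under the limit, 0.99 (SE 0.31, adjusted p = 0.0107). Its CD45.2 call was lost without LPS mouse 1 (log2 fold change 0.98), LPS mouse 3 (0.89) or untreated mouse 6 (0.82). Beside these, the Bhlhe41 promoter passed the adjusted p and not the fold limit in CD45.1, with 0.76 (SE 0.22, adjusted p = 0.00684). So did a Mitf peak at 4158 bp in CD45.2, with 0.90 (SE 0.33, adjusted p = 0.0421). No matched peak of Mitf or Tfe3 was called in either population by DESeq2, and their log2 fold changes ran from -0.76 to 0.90.

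**Figure D3:**
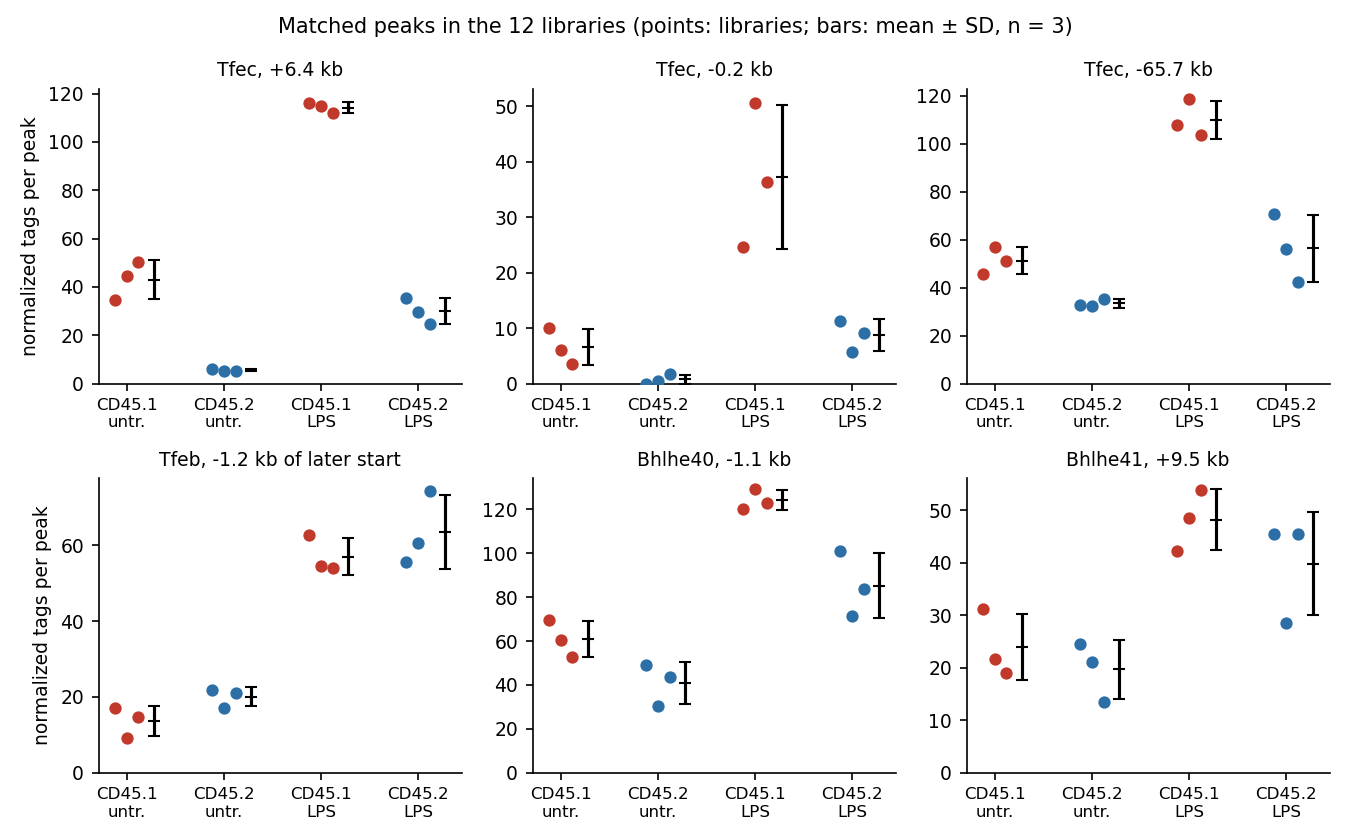
Normalized tags per peak (vertical axes, each from 0) in the 12 libraries for 6 matched peaks, CD45.1 in red and CD45.2 in blue, with points for libraries and bars for the mean ± SD of 3. The peaks of Tfec are higher in CD45.1 at either treatment, that of Tfeb rises to a like level in both populations, and the LPS libraries lie above the untreated ones of the same population in every panel.

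Whether LPS changed the difference between the populations was tested as an interaction. Of the 39 matched member peaks, 38 had a DESeq2 adjusted p. None passed (DESeq2, lowest adjusted p = 0.848, 0 of 39 also by edgeR), beside 0.242% of all matched peaks, and 2 had an unadjusted p under 0.05. These were the Tfec intron 1 peak at 6373 bp, with a log2 interaction of -0.95 (95% interval -1.82 to -0.07), and the Tfeb peak at 21932 bp, with -1.01 (-1.97 to -0.04), both named after their values were seen. A negative value means that the ratio of CD45.1 to CD45.2 was lower after LPS. At the Tfeb peak the order of the means reversed, from 29.8 (CD45.1) against 22.6 (CD45.2) normalized tags untreated to 25.3 against 37.1 after LPS. No difference in response between the populations was detected at the member peaks, which does not show that the responses were alike.

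**Figure D4:**
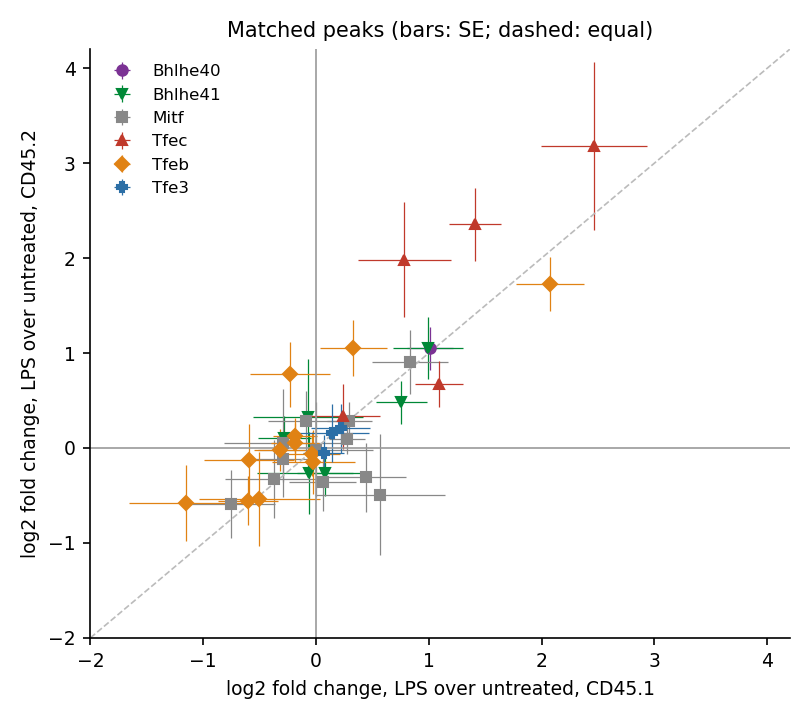
Log2 fold change of LPS over untreated in CD45.1 (horizontal) and CD45.2 (vertical) for the 39 matched peaks, coloured by gene, with SE bars and a dashed line of equal response. Tfec, Tfeb, Bhlhe40 and Bhlhe41 peaks reach the upper right, while those of Mitf and Tfe3 stay within 1 of 0 on both axes.

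Summed over the matched peaks of a gene on 1 scale for all libraries, Tfec had the widest range of the 6, with 145 ± 17.1 (CD45.1 untreated), 63.1 ± 5.79 (CD45.2 untreated), 324 ± 20.7 (CD45.1 LPS) and 136 ± 36.4 (CD45.2 LPS) normalized tags (SD, n = 3 throughout). The graft-derived LPS group lay above the rest and the host untreated group below, and the middle groups overlapped. Bhlhe40, from its 1 matched peak, gave 60.9 ± 8.37 (CD45.1 untreated), 40.98 ± 9.62 (CD45.2 untreated), 124 ± 4.65 (CD45.1 LPS) and 85.3 ± 14.8 (CD45.2 LPS), and both LPS groups lay above both untreated ones, CD45.1 being the higher each time, with no overlap between neighbours. For Bhlhe41 the sums were 209.8 ± 25.1 (CD45.1 untreated), 206 ± 26.3 (CD45.2 untreated), 261 ± 29.6 (CD45.1 LPS) and 238 ± 13.8 (CD45.2 LPS), and neighbours in that order overlapped. Mitf gave 439 ± 35.2 (CD45.1 untreated), 455 ± 2.02 (CD45.2 untreated), 485 ± 38.4 (CD45.1 LPS) and 471 ± 10.8 (CD45.2 LPS), and of its neighbours only CD45.2 LPS and CD45.2 untreated did not overlap. Tfeb had 487 ± 24.99 (CD45.1 untreated), 508 ± 6.71 (CD45.2 untreated), 453 ± 73.6 (CD45.1 LPS) and 561 ± 24.7 (CD45.2 LPS), with CD45.2 LPS above CD45.2 untreated, that above CD45.1 untreated, and the CD45.1 groups overlapping. Tfe3 had 182 ± 6.13 (CD45.1 untreated), 193 ± 27.5 (CD45.2 untreated), 199 ± 22.6 (CD45.1 LPS) and 196 ± 14.4 (CD45.2 LPS), and all neighbours overlapped. No test was made on these sums.

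**Figure D5:**
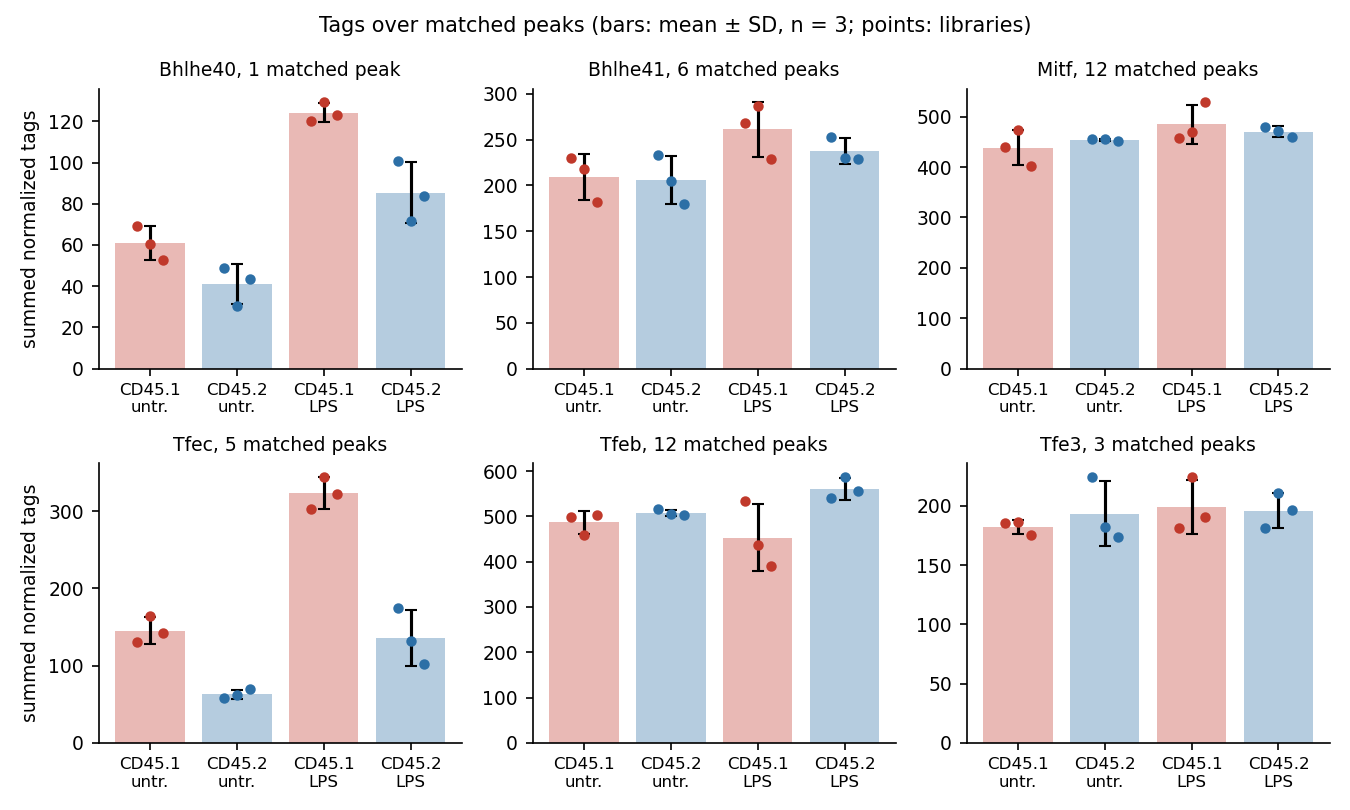
Normalized tags summed over the matched peaks of each gene (vertical axes from 0) in the 4 groups, with bars for means, error bars for SD and points for the 3 libraries a group. Tfec and Bhlhe40 differ between populations and treatments, and the bars of Mitf and Tfe3 are nearly level.

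Genes that act around these factors were compared by their summed tags, from lists given with earlier results of the series known. Of 20 regulators of TFEB and TFE3 at the lysosome, 2 were higher in CD45.1 in untreated mice, beside 7.35% of all gene sums. In CD45.2, 0 were higher (0 by edgeR and 1 at an unadjusted p under 0.05), beside 7.46%. The median log2 fold change was -0.00109 beside -9.55e-04 over all genes. The 2 genes higher in CD45.1 encode small GTPases that recruit mTORC1 and the factors to the lysosome. Rraga had 234 ± 5.77 normalized tags per CD45.1 library against 139 ± 0.712 per CD45.2 library (SD, n = 3, log2 fold change 0.75, SE 0.15, adjusted p = 9.93e-06). Rragb, from few tags, had 16.03 ± 3.37 normalized tags per CD45.1 library against 4.22 ± 2.73 per CD45.2 library (SD, n = 3, log2 fold change 1.88, SE 0.64, adjusted p = 0.0265).

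Of 30 lysosome and autophagy genes of the CLEAR network, 0 were higher in CD45.1 in untreated mice by DESeq2 (0 by edgeR and 1 at an unadjusted p under 0.05), with a median of 0.09. Among 13 MITF family targets with a peak (of 14, Tyr having none), 1 was higher in CD45.1 (3 by edgeR and 4 at an unadjusted p under 0.05). In CD45.2, 0 were higher (0 by edgeR and at an unadjusted p under 0.05), and the median was 0.06. The gene higher in CD45.1 was Atp6v0d2, a proton pump subunit of osteoclasts and macrophages, with 401 ± 43.7 normalized tags per CD45.1 library against 298 ± 52.7 per CD45.2 library (SD, n = 3, log2 fold change 0.44, SE 0.14, adjusted p = 0.0122). Over all genes, 7.35% of untreated sums passed as higher in CD45.1 and 7.46% as higher in CD45.2.

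Of 14 clock genes with a peak (of 15, Npas2 having none), 1 was higher in CD45.2, beside 7.46% of all gene sums. In CD45.1, 0 were higher (0 by edgeR and 1 at an unadjusted p under 0.05), beside 7.35%, and the median was 0.08. Hlf, a clock-output transcription factor, had 182 ± 26.1 normalized tags per CD45.1 library against 299.96 ± 27.3 per CD45.2 library (SD, n = 3, log2 fold change -0.71, SE 0.15, adjusted p = 2.74e-05). Of 19 other E-box factors and their partners, 1 was higher in CD45.1 (1 by edgeR and 2 at an unadjusted p under 0.05), beside 7.35%. In CD45.2, 0 were higher (0 by edgeR and at an unadjusted p under 0.05), beside 7.46%, and the median was 0.07. Id3, an inhibitor that lacks a DNA-binding region, had 295 ± 54.3 normalized tags per CD45.1 library against 209.7 ± 14.7 per CD45.2 library (SD, n = 3, log2 fold change 0.48, SE 0.15, adjusted p = 0.0133). After LPS, 0 of the 95 tested genes of the 5 lists passed in either direction by DESeq2, with 5 higher in CD45.1 and 0 in CD45.2 at an unadjusted p under 0.05 and 1 and 0 by edgeR, beside 4.08% and 2.98% of all gene sums. The 5 medians ran from -0.13 to 0.10.

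For each of the 6 genes, the genes with the most similar pattern over libraries were found by Pearson correlation of log2 summed tags, over 6 libraries in each table and 12323 genes, ranked by the smaller of the 2 coefficients, untreated and LPS. Tfec was most like Pdgfc (0.99 and 0.99) and 4930474N05Rik (0.98 and 0.99), and Bhlhe40 most like Alpk1 (0.99 and 0.98) and Aox1 (0.97 and 0.96). For Bhlhe41 these were Arhgap12 (0.96 and 0.89) and Zfp658 (0.88 and 0.96), for Mitf Fabp5 (0.92 and 0.94) and Casp12 (0.91 and 0.90), for Tfeb Pear1 (0.95 and 0.92) and Rab11fip3 (0.92 and 0.94), and for Tfe3 Bmp2k (0.95 and 0.87) and Fdxacb1 (0.84 and 0.87). The 6 points behind each coefficient share the 2 populations, the mice and the depth of the libraries, and the genes were picked as the highest of 12323.

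Each library's own peak list held 30 to 42 of the 52 untreated and 28 to 39 of the 50 LPS member peaks, the fewest in CD45.2 mouse 4 and in CD45.2 mouse 1. By an overlap of at least 1 bp, all 6 lists of a table held 26 untreated and 24 LPS peaks, among them promoter peaks of Bhlhe40, Bhlhe41, Mitf, Tfeb and Tfe3. No Tfec promoter peak was among them. The E-box CACGTG was found in 6 of 52 untreated and 5 of 50 LPS member peaks, 11.5% and 10%, beside 5.65% and 5.82% of all peaks. No Tfec or Mitf peak held it in either table, and of the untreated peaks that did, 5 of 6 lay at Bhlhe40 or Bhlhe41.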

How the data were processed

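ATAC-seq libraries were made from 12 sorted samples. Per the labels and the processing notes of the submitters, which name bcl2fastq 2.17.1.14, Bowtie2, Picard 1.108 and HOMER, reads were placed on mm9. The authors called peaks per library, merged the 6 lists of each treatment, annotated each merged peak to the nearest start site and counted tags. The deposited values are unnormalized tags in steps of 0.5 and were treated as estimated counts (expected counts). The HOMER score that the authors deposited with each own-list peak was used only to filter peaks. Whether read ends were shifted for the transposase is not given in the sources used here.

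Counts were rounded and tested with DESeq2 1.42.0 (R 4.3.3, Wald test) in each table alone. Peaks that exceeded a count of 10 in some library were kept (59170 of 60288 and 49180 of 54953). The Benjamini-Hochberg adjustment ran over all features left by the default DESeq2 filter on mean counts, and those it removed had no adjusted p. Calls needed adjusted p below 0.01 with a change beyond 4-fold. Gene sums add all peaks of a gene, and peaks without a gene (12 and 8, 0.0159% and 0.0161% of tags) were left out of them. A model of all 12 libraries tested LPS responses and the interaction on 39235 matched peaks of 39390. Normalized tags are counts divided by DESeq2 size factors, set within a table for the populations and over all 12 libraries for matched peaks. Log2 fold changes are CD45.1 over CD45.2 unless stated. Steps were tested on simulated data.

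Alternatives were edgeR 4.0.16, other scalings, count filters and overlaps, a replicate block (with and without GC), single peaks or peaks within 100 kb for gene sums, and leaving out each library. The series design states that both populations were sorted from the same animal, so mice pair the libraries. Deviations from group means correlated within mice at 0.08 to 0.09 (untreated) and -0.07 to 0.15 (LPS). Between different mice they did so at -0.10 to 0.00105 (untreated) and -0.16 to 0.12 (LPS). The LPS ranges overlapped, so the LPS pairing rests on the stated design alone. Values in every library are given for called peaks, the promoter peak of each gene (nearest its start, within 1 kb) and its strongest peak. From the pathway lists, up to 2 genes per direction, list and table with the smallest adjusted p under 0.05 were named, except for a gene of the CLEAR list that is not reported here. Members, lists and rules were chosen with earlier results of these data known, and 3 motifs (TGANTCA, GAGGAAGT and TTNNGCAA) and a call rule without a fold limit, alone and with the block, were added after seeing the data. Each replicate is 1 mouse, and intervals from tag counts cover counting error only. For counts at an unadjusted p under 0.05, and with the block and no fold limit, no share over all features is given. Those counts are thus not set against other peaks or genes.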

Additional observations from a re-analysis of the deposited data

How the results depend on the processing

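The LPS libraries held fewer tags than the untreated ones, and the part of depth in the calls was not tested. With a mean count of at least 20, the peaks called higher in CD45.1 fell from 2 to 1 (untreated) and from 3 to 0 (LPS) and those higher in CD45.2 from 1 to 0, as fewer peaks were tested (36 and 28 member peaks). The replicate block with GC correction left 1, 0 and 0 of these, and the replicate block alone left 0 of the 3 LPS calls and, for the Bhlhe40 sum after LPS, 0.82 with an adjusted p of 0.0502. It changed no other 4-fold call or gene sum between the populations, and the causes were not tested. With no fold limit at an adjusted p under 0.05, 6 untreated and 7 LPS peaks were higher in CD45.1, and 3 and 5 with the replicate block.

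Leaving out 1 library gave 1 to 2 and 0 to 1 untreated and 0 to 2 LPS population calls, 4 to 6 LPS responses in CD45.1 and 4 to 7 in CD45.2 and 0 interactions. For gene sums (log2) the ranges were 0.60 to 0.88 (untreated) and 0.72 to 1.00 (LPS) for Bhlhe40, -0.115 to 0.0720 for Bhlhe41, -0.0792 to 0.0225 for Mitf (both untreated) and -0.0725 to 0.0698 for Tfe3 after LPS. Sums scaled to total tags gave 0.84 for untreated Bhlhe40, no longer past the threshold, and turned the signs of Bhlhe41 (0.0217) and Mitf (0.00387), which passed no test. The strongest peak alone gave 0.59 and 0.57 for Bhlhe40 and 0.61 for untreated Tfec, none past the threshold, and 0.22, 0.10 and 0.0130 for untreated Bhlhe41, Tfeb and Tfe3, with the sign turned. With a mean count of at least 20, Tfe3 after LPS was -0.0109. Tfec sums passed in every other setting tried. Apart from the strongest peak alone, the settings kept the Tfec peaks that only CD45.1 libraries listed, so they could not test that selection. LPS responses fell to 2 (CD45.1) and 2 (CD45.2) of 14 matched peaks at 80% overlap, and to 3 in CD45.2 with total tags, a scaling that moved the median of all peaks from -0.00717 to -0.15 there and from -0.00768 to 0.14 for the populations after LPS. Peaks held by all 6 lists went from 26 to 13 in untreated mice with a score of at least 20, and after LPS from 24 to 4, or to 9 with 50% of the peak covered.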
